A study of Homo sapiens with 2 samples.

Results

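The 16 embryonic stem cells (ESCs) of the human line H9 in this series were split by their level of POU5F1, the gene that encodes OCT4. A cell was called low where POU5F1 was below 300 CPM (counts scaled to a total of 1000000 gene counts per cell) and high otherwise, which gave 4 low cells and 12 high cells among the 41 cells of the series. The series holds 2 single-cell libraries made with the Smart-seq2 protocol from polyadenylated RNA, 1 of the ESCs and 1 of 25 feeder-free extended pluripotent stem cells (ffEPSCs) made from them. All cells come from the same line, no genotype, dose or age sets the low cells apart in the labels, and culture and sorting are not described there. The low cells were at 100, 218, 63.5 and 164 CPM of POU5F1, and the high cells had a lowest value of 496, a median of 1156 and a highest of 1310 CPM. The cells were thus selected on POU5F1 itself, whose values are a description only. The values nearest to the limit were 218 CPM below it and 496 CPM above it, with no cell between them.

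OCT4 is a POU-domain transcription factor that binds an octamer motif, often together with SOX2, and its loss in human ESCs is known to end self-renewal. Together with NANOG and SALL4 it holds up the expression of other pluripotency genes, among them signalling components of the NODAL and FGF pathways. ESCs that leave the pluripotent state are known to turn on markers of the germ layers or of trophoblast and amnion.

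The cells of both groups are 1 sample, so no p-value is given for any difference between them, and every ratio describes these 16 cells. Cell names carry a set number, and the sources used here do not say what it stands for. Low cells 1 and 2 belong to set 1 and low cells 3 and 4 to set 3, beside 5 high cells of set 1 and 7 of set 3. The low cells had 11714517 to 14683949 gene counts and the high cells 16349317 to 19965639, so every cell was thinned at random to 11714517 counts, where 1 count is 0.0854 CPM, before levels were compared. After thinning, 9636, 12817, 11943 and 11974 genes had a read in the low cells, against a lowest of 11794, a median of 13237 and a highest of 15418 in the high cells. Only low cell 1 lay below every high cell in this measure. No cell name was shared between libraries, and no ESC column was identical to another.

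A ratio is the mean CPM of the low cells over that of the high cells, as log2 after adding 1 CPM, and a gene was measured where the higher group had at least 5 CPM. Of 10794 measured genes, 1140 (10.6%) were higher in the low cells by 2-fold or more and 3106 (28.8%) were lower by 2-fold or more. The median ratio of all measured genes was -0.28. In 227 genes (2.1%) a ratio of at least 2-fold went with every low cell above every high cell, and in 525 genes (4.86%) with every low cell below every high cell. Within set 1, 16.7% of genes were past 2-fold on the higher side and 29.8% on the lower, and within set 3, 12% and 34.9%. Of the 3106 lower genes, 2097 were at least 2-fold lower in each set and 3028 had the same direction in both. Of the 1140 higher genes, 431 were 2-fold higher in each set and 889 had the same direction in both. These genes were chosen by their ratio over the same cells, which favours the same direction in both sets. The counts are therefore no independent check.

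The coding sequence of POU5F1 and of the first 3 protein-coding genes at each end of the ranking described further on is shown here, because base composition moved with the ratio across all genes. JPX, a non-coding RNA that ranks before HELZ, has no coding exon. Each line holds the central 60 bases of the longest coding exon, read from GRCh38 on the coding strand with GENCODE 29 exons, with every G and C in capitals.
POU5F1, chr6:31170389-31170448, minus strand, 68.3% G or C: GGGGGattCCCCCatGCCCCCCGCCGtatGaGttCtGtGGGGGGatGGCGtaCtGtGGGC
RMDN3, lower in the low cells, chr15:40745089-40745148, minus strand, 60% G or C: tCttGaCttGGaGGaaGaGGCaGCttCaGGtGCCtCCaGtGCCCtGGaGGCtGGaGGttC
CHMP1A, lower, chr16:89646591-89646650, minus strand, 61.7% G or C: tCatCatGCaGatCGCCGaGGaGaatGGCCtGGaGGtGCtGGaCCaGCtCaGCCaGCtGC
S1PR2, lower, chr19:10224347-10224406, minus strand, 65.0% G or C: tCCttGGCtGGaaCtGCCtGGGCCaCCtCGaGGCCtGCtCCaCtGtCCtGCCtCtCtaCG
ZNF385D, higher in the low cells, chr3:21437057-21437116, minus strand, 50% G or C: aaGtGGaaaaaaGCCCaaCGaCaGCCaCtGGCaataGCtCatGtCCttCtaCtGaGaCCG
ZNF217, higher, chr20:53576474-53576533, minus strand, 55.0% G or C: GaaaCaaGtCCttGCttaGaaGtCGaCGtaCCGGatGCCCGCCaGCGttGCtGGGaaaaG
HELZ, higher, chr17:67109372-67109431, minus strand, 46.7% G or C: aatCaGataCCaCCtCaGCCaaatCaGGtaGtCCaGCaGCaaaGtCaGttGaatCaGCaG
Over all 12 lower genes of the ranking such stretches held 46.7% to 76.7% G or C (median 60.9%), and over 11 higher genes 33.3% to 63.3% (median 46.7%), so the 2 ends overlapped.

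Core pluripotency genes were lower as a group in the low cells. Of 26 genes on the list besides POU5F1, 23 were measured, 9 were lower by 2-fold or more and 0 higher, against 28.8% and 10.6% of all measured genes. The median ratio was -0.90, beside -0.28 for all genes, and it was -0.90 within set 1 and -0.89 within set 3. A total of 18 members lay below 0 and 5 above. The 3 unmeasured members were UTF1, FOXD3 and TERT, the catalytic subunit of telomerase. TERT had no read in a low cell. In the high cells it had a mean of 4.98 CPM and at most 21.9 CPM, with reads in 8 of them. With 2 counts taken as 1 read pair, the 95% Poisson interval of the low group's mean reaches 0.157 CPM.

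NANOG, a homeobox factor of the same core circuit, was at 69.1, 56.5, 30.1 and 59.7 CPM in the low cells, against a lowest of 64.9, a median of 179 and a highest of 194 CPM in the high cells. Low cells 2, 3 and 4 lay below all high cells, and low cell 1 lay just above the lowest of them. Before thinning, high cells 6, 9 and 10 were at 66.5, 66.5 and 68.3 CPM of NANOG, beside 68.9 CPM in low cell 1. These high cells had POU5F1 at 496, 1095 and 1251 CPM, and the other high cells had 156 CPM of NANOG or more. The ratio was -1.47. SOX2, the partner of OCT4 at many sites, was at 5.80, 29.4, 16.5 and 35 CPM, against 23.6, 34.6 and 63.9 CPM for the lowest, median and highest high cell. Low cells 1 and 3 lay below all high cells in SOX2 and low cells 2 and 4 within their range, with a ratio of -0.73 that turned to 0.24 once GC content and length were subtracted, as described further on.

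The zinc finger factor ZSCAN10 had the lowest ratio of the list, -3.15, with 7.17, 34.9, 4.52 and 11.3 CPM in the low cells and a lowest of 47.3, a median of 146 and a highest of 246 CPM in the high cells. The 2 groups of cells did not overlap. VRTN (-2.66) and SALL4 (-1.01), a zinc finger partner of OCT4, did not overlap either. SALL4 was at 61.3, 164, 136 and 183 CPM in the low cells and at 190 to 380 CPM in the high cells.

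DPPA4, a chromatin-associated factor of early development, and TDGF1, the NODAL co-receptor, missed 2-fold at -0.96 and -0.94, and in both every low cell lay below every high cell, as it did at any fold in 5.25% of all genes. DPPA4 was at 507, 680, 420 and 639 CPM against 856 to 1262 CPM. LIN28A, which binds RNA and blocks the maturation of let-7 miRNAs, was at -1.34, and its paralog LIN28B at 0.79, with low cells 2 and 4 above all high cells in LIN28B. L1TD1 (0.08), POLR3G (0.42), JARID2 (0.32) and the DNA methyltransferase DNMT3B (-0.26) overlapped between groups.

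**Figure D1:**
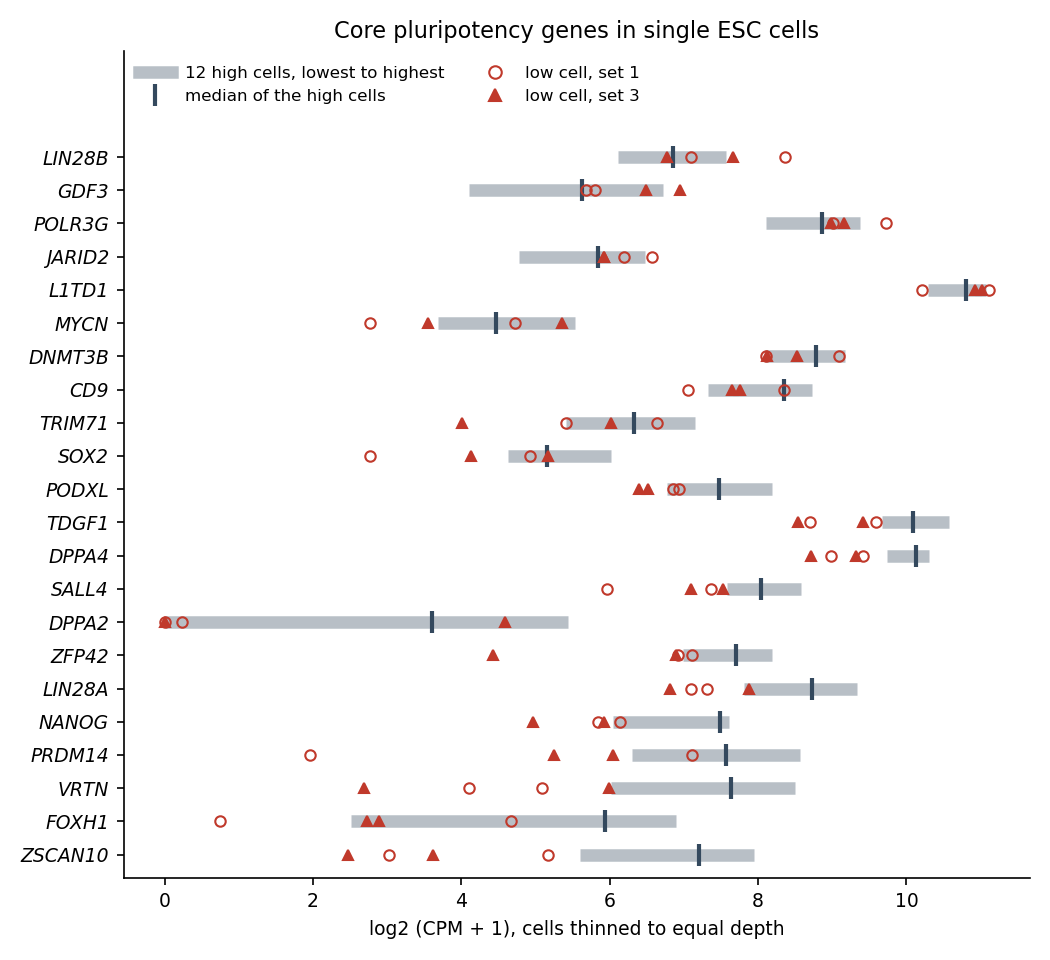
Each row is a core pluripotency gene, 22 of the 23 measured, with log2 (CPM + 1) after thinning on the x axis. Grey bars run from the lowest to the highest of the 12 high cells with the median as a tick, and red symbols are the 4 low cells, open circles for set 1 and triangles for set 3. All 4 red symbols lie left of the bar in ZSCAN10, VRTN, SALL4, DPPA4 and TDGF1, and at or around the bar in the upper rows.

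A 7-base part of the octamer motif, spelled ATGCAAA or TTTGCAT on the printed strand and thus searched on both strands, was looked for in RefSeq promoters of GRCh38.p14, from 250 bases before to 50 bases after each start. It occurred in 4.5% of 27195 promoters and in 2.71% of the 8477 measured genes with a promoter. Among genes at least 2-fold lower without overlap, 10 of 435 (2.3%) held it, and among those at least 2-fold higher without overlap, 3 of 167 (1.8%). Of 18 core list genes with a promoter, NANOG and SOX2 held it. The NANOG promoter, chr12:7789152-7789451 on the plus strand, is shown because NANOG is the measured core partner that was at least 2-fold lower, with the 7 bases in capitals, starting 120 bases before the start site as position -120.
NANOG promoter: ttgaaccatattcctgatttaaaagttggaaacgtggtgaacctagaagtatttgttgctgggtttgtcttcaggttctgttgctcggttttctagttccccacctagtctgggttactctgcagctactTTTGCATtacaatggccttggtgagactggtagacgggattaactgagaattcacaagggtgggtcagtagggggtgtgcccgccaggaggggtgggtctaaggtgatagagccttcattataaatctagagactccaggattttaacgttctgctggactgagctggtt

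Summed markers of other cell types overlapped between the groups. The 5 listed mesendoderm markers summed to at most 0.0854 CPM in a low cell and 3.76 CPM in a high cell. MIXL1, EOMES, FOXA2 and GATA4 had no read in the low cells. EOMES and GATA4 had none in the high cells either, and MIXL1 and FOXA2 each had reads in 3 of them. Trophoblast and amnion markers summed to 0 to 17.1 CPM in the low cells and 0 to 25.1 CPM in the high cells. KRT7 made up both of these highest sums, and GATA2 and GATA3 had no read in any ESC. Neuroectoderm markers summed to 149 to 499 CPM against 137 to 341 CPM, and fibroblast markers to 76.1 to 126 CPM against 75.3 to 172 CPM. PAX6 had no read in the low cells and reads in 1 high cell. Not listed among the counted genes were GSC, SOX17, GATA6, SOX1, CDX2, TFAP2A, HAND1, COL3A1, LUM and DCN. The pluripotent markers NANOG and SOX2 summed to 46.6 to 94.7 CPM against 96.6 to 256 CPM, without overlap. POU5F1, NANOG and SOX2 were each detected in every low cell.

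Signalling genes around pluripotency held lower genes at shares near or above that of all measured genes, of which 28.8% were lower and 10.6% higher. Of 18 measured genes of NODAL and TGF-beta signalling, 6 were at least 2-fold lower and 1 higher, with a median of -0.83 beside -0.28 for all genes. The ligand NODAL (-2.65), its inhibitors LEFTY1 (-3.87) and LEFTY2 (-2.81) and the SMAD partner FOXH1 (-2.81) led the list. All of these overlapped between the groups. LEFTY1 was at 0.342, 8.62, 0.512 and 3.24 CPM in the low cells, against a lowest of 0, a median of 9.69 and a highest of 411 CPM. In the FGF list, 5 of 13 measured genes were at least 2-fold lower and 0 higher. The receptor FGFR4 (-3.83) and the ERK-induced factor ETV4 (-2.44) did not overlap between groups, while the ligand FGF2, chosen after its values were seen, was at 0.91. Of 13 WNT genes 4 were lower, of 8 BMP and ID genes 2, and none of either list was at least 2-fold higher. Medians of the FGF, WNT and BMP lists were -0.61, -0.78 and -0.46. Once GC content and length were subtracted, as described further on, they were -0.12, -0.13 and -0.41, and that of the NODAL list -0.42. The median of all genes is then 0. FGFR4 was then at -1.79 and ETV4 at -0.68.

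BMP4 had no read in a low cell, so the Poisson limit of 0.157 CPM given for TERT holds as well. Its mean in the high cells was 5.31 CPM, with reads in 9 of them. Naive pluripotency genes had only 3 measured members of 20. Of 19 measured primed pluripotency genes, 7 were at least 2-fold lower and 1 higher, beside 28.8% and 10.6% of all genes. The list's median was -0.08, beside -0.28 for all genes. In that list THY1, a surface glycoprotein, was at 60.4, 160, 64.4 and 67.3 CPM against a lowest of 304, a median of 450 and a highest of 609 CPM. The groups did not overlap, with a ratio of -2.35. ZIC5, a zinc finger factor, was at 1.67 and overlapped. Of the POU family, POU2F1 was the only measured member besides POU5F1.

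Cell cycle genes were counted by phase, beside 28.8% lower, 10.6% higher and a median of -0.28 over all genes. Of 42 measured S-phase genes, 16 were at least 2-fold lower and 0 higher (median -0.66), and of 53 genes of G2 and M phase, 9 were past 2-fold on the lower side and 4 on the higher, with a median of -0.06. The difference between the phases was not tested. MCM2 and MCM5, subunits of the replicative helicase, had the lowest ratios, -4.40 and -3.11. MCM5 was at 15.5, 49.6, 53.8 and 87.1 CPM against a lowest of 234, a median of 465 and a highest of 611 CPM, and the groups did not overlap. UNG (-2.49), which removes uracil from DNA, and the flap endonuclease FEN1 (-2.36) did not overlap either. MCM6, a subunit of the same helicase named after its values were seen, was at -0.99 with overlap.

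Glycolysis genes were lower in the low cells. Of 20, 12 were at least 2-fold lower and 0 higher, against 28.8% and 10.6% of all genes. The median was -1.16, and -0.29 once GC content and length are subtracted. In 5 of the 20 a ratio at least 2-fold lower went without overlap, against 4.86% of all genes. GAPDH was at 1755, 2543, 1494 and 2306 CPM against a lowest of 3951, a median of 4237 and a highest of 5116 CPM, with a ratio of -1.11 (0.14 once GC content and length are subtracted) and no overlap. PFKL, a phosphofructokinase subunit, was at -2.54 and the neuronal enolase ENO2 at -2.33, which did not overlap. LDHA, named after its values were seen, was at 0.39.

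Nuclear-encoded respiratory chain genes were higher in the low cells. Of 42 measured, 15 were at least 2-fold higher, against 10.6% of all genes, while 4 were lower by that much, and the median was 0.67. In 13 of the 15 every low cell lay above every high cell, against 2.1% of all genes. The list's median was 0.67 within set 1 and 0.57 within set 3. NDUFA1, an accessory subunit of complex I named after its values were seen, was at 698, 422, 674 and 396 CPM, against a lowest of 136, a median of 190 and a highest of 284 CPM. UQCRC1 (-1.43), a core subunit of complex III, and SDHA (-1.44) and SDHC (-1.64) of complex II were lower, with overlap in the last 2. The measured transcripts of the respiratory list had a median length of 1125 bases, against 2772 for the glycolysis list and 2980 for all measured genes.

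Stress and damage lists held genes at both ends. Of 15 measured apoptosis and p53 target genes, 8 were at least 2-fold lower and 2 higher, where 28.8% and 10.6% of all genes were, with a median of -1.01. MDM2, the ubiquitin ligase that holds p53 down, was at 112, 162, 46.2 and 48.5 CPM, against a lowest of 13.2, a median of 23.6 and a highest of 37.7 CPM. All 4 low cells lay above the high cells, with a ratio of 1.88. CDKN1A, named after its values were seen and a main p53 target, had no read in the low cells and a mean of 0.384 CPM in the high cells. Of 18 integrated stress response genes, 9 were lower and 0 higher, with a median of -1.23. MANF (1.61), a secreted factor of the stressed endoplasmic reticulum, was higher without overlap.

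In cholesterol synthesis, 10 of 24 genes were at least 2-fold lower and 1 higher, again beside 28.8% and 10.6% of all genes. TM7SF2 (-2.74) and the regulator SREBF2 (-2.46) did not overlap, while HMGCS1, named after its values were seen, was at 2.05 with overlap. The histone deacetylase HDAC2 was at 343, 312, 245 and 341 CPM against a lowest of 712, a median of 888 and a highest of 1312 CPM. It did not overlap (-1.55), and 38.2% of the bases of its transcript are G or C. Among non-coding RNAs, ESRG, a transcript of HERVH origin, was lower without overlap (-1.08), and LNCPRESS2 was higher without overlap (1.14). MALAT1, which is retained in the nucleus, was at 1.46 with 1 low cell inside the range of the high cells.

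**Figure D2:**
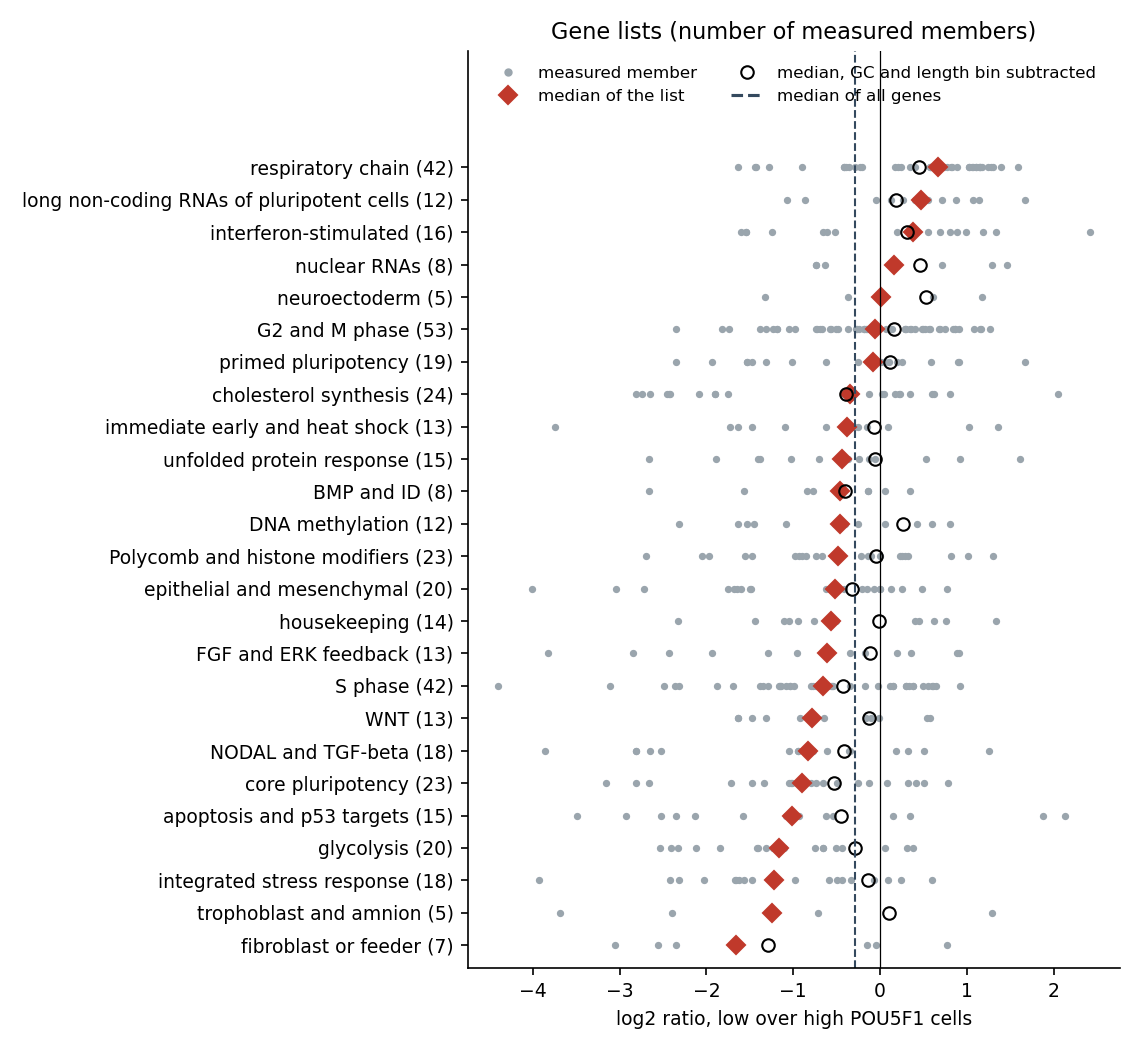
Each row is a gene list with at least 5 measured members, whose number is in brackets, and the x axis is the log2 ratio of low over high cells. Grey points are members, red diamonds list medians, open circles list medians after the median of each bin of GC content and length is subtracted, and the dashed line is the median of all genes (-0.28). The respiratory chain has the highest median (0.67), and subtraction moves the glycolysis and integrated stress response medians nearer to 0 (-0.29 and -0.14).

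Genes without overlap and with at least 20 CPM in the higher group were ranked by ratio. The 12 lowest ran from RMDN3, a mitochondrial outer membrane protein, at -5.85 to NCKIPSD at -4.85. CHMP1A, a component of the ESCRT membrane scission machinery, was at 0.171, 6.15, 1.02 and 0.171 CPM in the low cells, against a lowest of 43.7, a median of 120 and a highest of 237 CPM. S1PR2, a sphingosine 1-phosphate receptor, was at no more than 0.171 CPM in any low cell and 5.12 to 95.7 CPM in the high cells. PEX10 (-5.09), needed for peroxisome assembly, PIGO (-5.06), of GPI anchor synthesis, GANAB (-4.90), a glucosidase of the endoplasmic reticulum, and BAK1 (-4.86), an effector of apoptosis, were among the 12. The 12 transcripts had a GC content of 50.6% to 61.5%.

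The 12 highest ran from ZNF385D at 2.07 to CHAMP1 at 1.72. HESX1, a homeobox gene active in pluripotent and early neural cells, was at 166, 128, 197 and 280 CPM, against a lowest of 0.939, a median of 46.8 and a highest of 90.2 CPM. S100A11, a small calcium-binding protein, was at 1387, 1008, 1497 and 519 CPM against 204 to 464 CPM in the high cells. The zinc finger gene ZNF217 (2.06), the non-coding RNA JPX (2.05), the helicase gene HELZ (2.02), the deubiquitinase USP45 (1.99) and COMMD1 (1.72) were also among them. ANTKMT (1.96) stood apart in the group with a transcript GC content of 72.1%. The other 11 lay between 36.9% and 54.2%.

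Base composition moved with these differences across all protein-coding genes. The 9852 measured protein-coding genes were divided into 5 equal bins. The bin with the least G and C (31.5% to 40.8% of the transcript) had a median ratio of 0.21, and 8.37% of them were at least 2-fold lower. The median was lower in each next bin, and the bin with the most (57.1% to 74.6%) had a median of -1.31 with 58.7% at least 2-fold lower. Length moved with the ratio as well, but not in 1 direction. Of 5 bins by length, the shortest (291 to 1745 bases) had a median of 0.16, the next in length -0.69, the middle -0.70, and the longest (5480 bases or more) -0.12. Of the 157 genes in both the shortest and the most GC-poor bin, 38.9% were at least 2-fold higher and 1.27% lower.

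**Figure D3:**
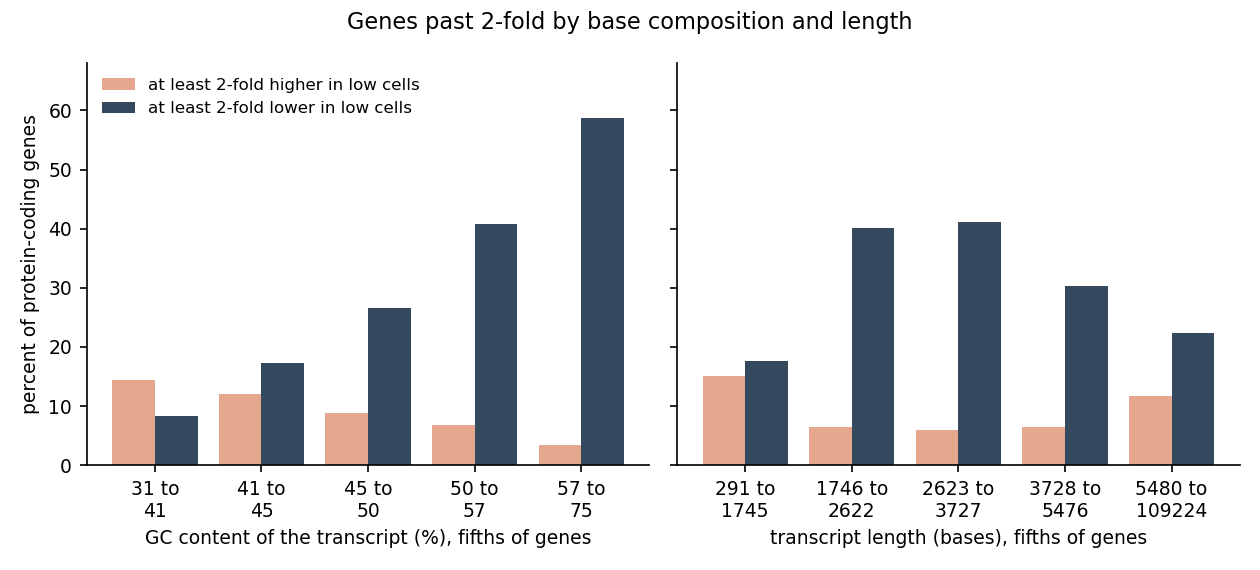
Bars give the percent of measured protein-coding genes that were at least 2-fold higher (orange) or lower (dark) in the low cells, by 5 equal bins of transcript GC content (left) and length (right). The percent of lower genes climbs from 8.37 to 58.7 with GC content, and by length is highest, at 41.2, in the middle bin.

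When the median ratio of each bin of GC content (10 bins) and length (5 bins) was subtracted, 1766 genes were lower and 1393 higher by 2-fold or more relative to their bin, instead of 3106 and 1140. The core pluripotency median was then -0.53 and the S-phase median -0.42, while that of all genes is 0 by construction. NANOG was then at -1.28 (from -1.47) and TDGF1 at -0.88 (from -0.94). ZSCAN10 moved from -3.15 to -1.11, VRTN from -2.66 to -1.06, PRDM14 from -1.71 to -0.53 and SALL4 from -1.01 to -0.60. SOX2 turned to 0.24, DNMT3B to 1.22, PODXL to 0.85 and MYCN to 1.52. The respiratory chain median was 0.45, glycolysis -0.29 and GAPDH 0.14. HDAC2 stood at -1.85, MCM2 at -2.81 and RMDN3 at -4.37. The part that base composition and length have in the other differences was not tested.

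Each cell was scored by the median of its GC-rich genes minus that of its GC-poor genes, as log2 against the mean of the 16 ESCs. The low cells scored -1.89, -0.63, -1.60 and -1.20, and the high cells had a lowest score of -0.44, a median of 0.55 and a highest of 0.66. The groups did not overlap. The lowest high cell in this score was also the one with the lowest POU5F1, 496 CPM. Over the 12 high cells, which share a library and differ in depth, Pearson's r of the score with POU5F1 was 0.86 and Spearman's rho 0.62, and r was 0.69 without the 2 cells farthest from the median score. In the same cells, r of POU5F1 with NANOG was 0.41 (-0.05 without the 2 farthest cells) and with SOX2 0.04 (-0.24). High cell 10, at 68.3 CPM of NANOG and 1251 CPM of POU5F1, was not among the 2 left out. The values of r thus do not settle whether NANOG followed POU5F1. With the LSU rRNA share described further on, r of POU5F1 was -0.84 (-0.43 without the 2 farthest cells), and with depth 0.30. POU5F1 is itself GC-rich, with 57.8% G or C in its transcript.

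Autosomes followed the same order. Over genes with at least 20 CPM, the median ratio of an autosome ran from -0.92 on chromosome 22 to 0.13 on chromosome 18, with -0.70 on chromosome 19. Across the 22 autosomes, which share the same cells, the median ratio and the median GC content had an r of -0.92 and a rho of -0.89. After the bin medians were subtracted, autosome medians lay between -0.15 and 0.12.

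**Figure D4:**
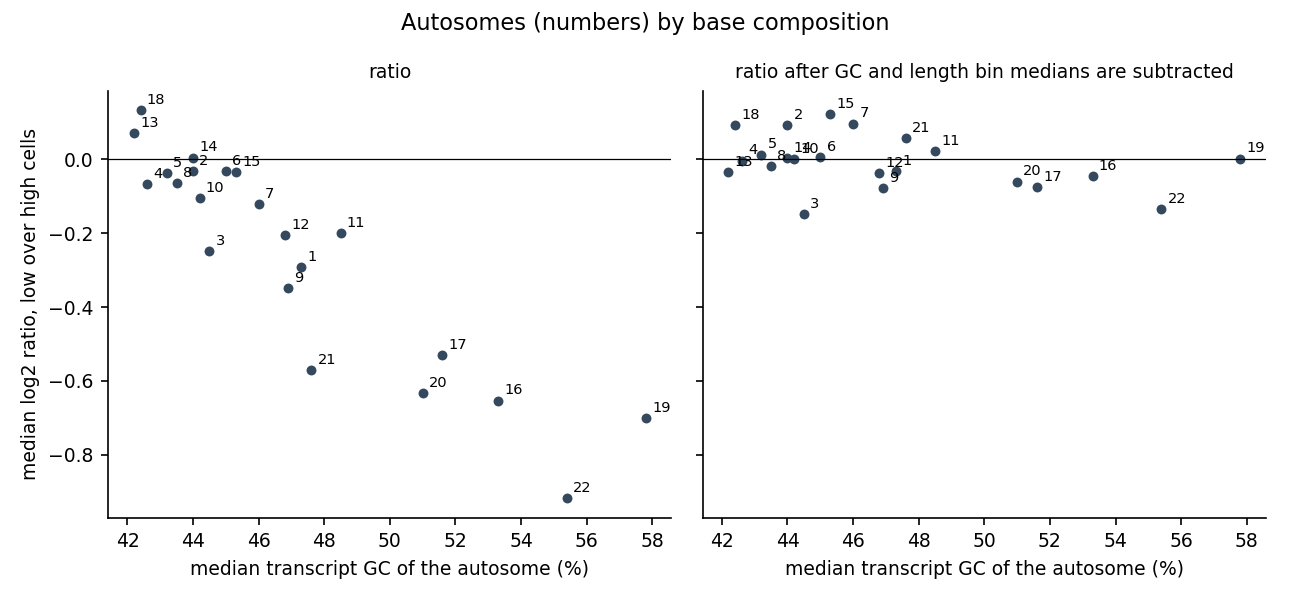
Each point is an autosome, named by its number, with the median GC content of its measured transcripts on the x axis and its median log2 ratio of low over high cells on the y axis. The left panel runs from 0.13 to -0.92, and after subtraction of GC and length bin medians (right) the points lie between -0.15 and 0.12.

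The repeat table was compared in the same way, after thinning to 4560140 repeat counts per cell, as CPM of repeat counts. Of 562 repeat names with at least 100 CPM in the higher group, 22 (3.91%) were at least 2-fold higher in the low cells and 25 (4.45%) lower, with a median of 0.23. This balance depended on the scaling, with 48 higher and 19 lower when repeats were scaled to gene counts, and 25 higher and 78 lower when rRNA was left out of the total. At least 2-fold higher without overlap were 3 names (0.534%), and at least 2-fold lower without overlap 16 (2.85%). The name of the large ribosomal subunit RNA (LSU) made up 3.43%, 3.69%, 3.06% and 5.42% of the repeat counts of the low cells, against a lowest of 0.549%, a median of 0.699% and a highest of 1.32% in the high cells. The groups did not overlap, and the ratio was 2.36. The 95% Wilson intervals of these shares, for counting error only, reach at most 0.017 percentage points to either side. They take each count as deposited as independent, so they are too narrow where both reads of a pair count. Small subunit RNA (SSU) overlapped, at 29.5% to 51.8% in the low cells and 35.8% to 67.5% in the high cells. LSU and SSU rRNA both lack a poly(A) tail, and the part of LSU rRNA in the other differences was not tested.

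HERVH-int, the internal part of the endogenous retrovirus that is active in human pluripotent cells, was at 30210, 29580, 38000 and 28930 CPM of repeat counts. The high cells had a lowest value of 25020, a median of 50600 and a highest of 71570 CPM. All 4 low cells lay below the median of the high cells and within their range, with a ratio of -0.60 (-1.03 in set 1 and -0.21 in set 3). Its promoter LTR7 was at 0.18, with -0.44 in set 1 and 0.71 in set 3. LTR5-Hs (0.28) likewise had -1.09 in set 1 and 1.25 in set 3, HERVK-int was at 0.78 and L1HS at -0.61, and all of these overlapped.

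MamGyp-int (-2.99), BSR (-1.29), a satellite name, MER34B-int (-1.25) and LTR41B (-1.06) were lower without overlap. Among transposable elements, Tigger17a (1.13), L1MEg (0.999) and the hominid retroelement SVA-F (0.74) were higher without overlap, where L1MEg and SVA-F missed 2-fold. SVA-F was at 202, 159, 155 and 150 CPM against 45.4 to 149 CPM. Of all 562 repeat names, 4.45% were at least 2-fold lower and 3.91% higher. Of 65 simple repeats whose unit is more than 60% G or C, 10 were at least 2-fold lower and 2 higher, and of 52 with less than 40%, 3 were lower and 2 higher. Of the first kind, (GGCCA)n at -2.56 and (GCCC)n at -2.06 were lower without overlap, (CGCCGT)n at 1.06 was higher without overlap, and (CGGCC)n at 0.97 and (GCTGCC)n at 1.02 overlapped. Of the second kind, (TT)n at -1.92 was lower without overlap.

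**Figure D5:**
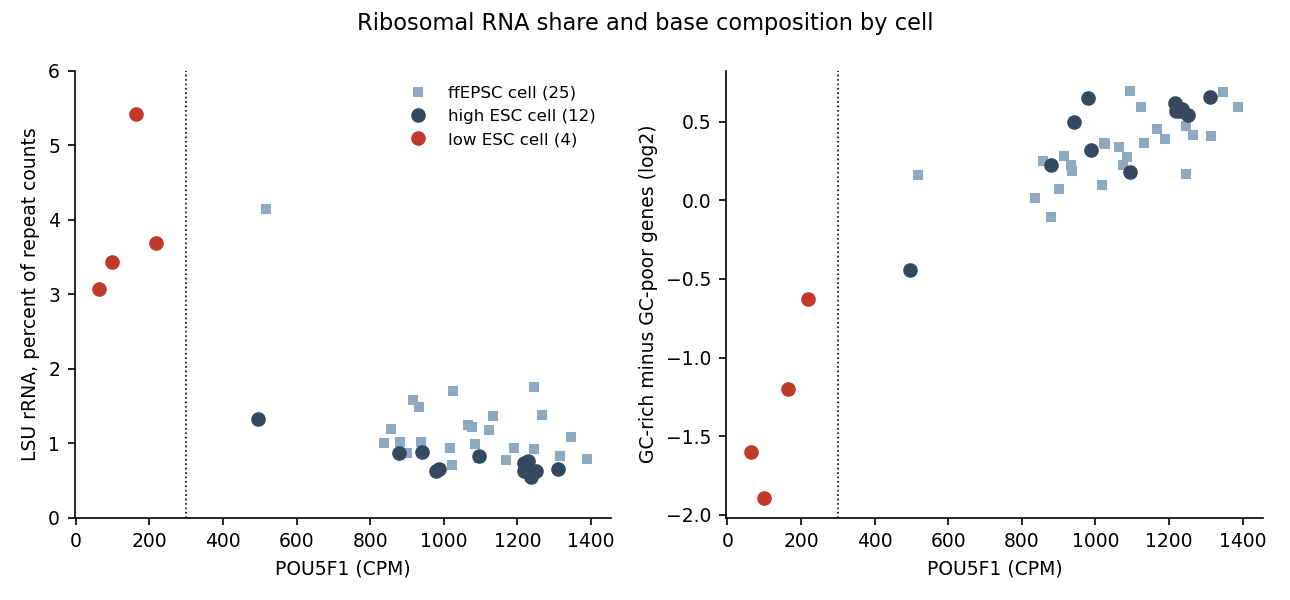
Each point is a cell, with POU5F1 in CPM on the x axis and the dotted line at the limit of 300 CPM. The y axes give the LSU rRNA percent of repeat counts (left) and the log2 score of GC-rich minus GC-poor genes (right). The 4 low ESCs (red) lie at 3.06 to 5.42% and at -1.89 to -0.63, the 12 high ESCs (dark) at 0.549 to 1.32% and at -0.44 to 0.66, and 1 of the 25 ffEPSCs (light) lies at 4.15%.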

How the data were processed

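Gene and repeat counts were deposited by the authors as whole numbers per cell, without normalization. The submitters' processing notes name HISAT2 2.2.1, SAMtools 1.6, featureCounts and Subread 2.0.6, with builds GRCh38 and CHM13 (telomere to telomere) in no stated role. The sources used here give neither strand nor the treatment of reads with many positions, so paralogs, antisense partners and young repeats are uncertain. A median of 98.5% of non-zero counts in a cell were even, as when both reads of a pair count. Counts were thinned to equal depth in Python 3.11.15 (numpy 2.4.6, pandas 2.3.3). GC content and length come from the GENCODE 29 transcript with the longest coding sequence, matched for 21289 of 22474 genes. Scaling alternatives used edgeR 4.0.16 (TMM) and DESeq2 1.42.0 size factors. The ratio was tested on simulated data. Values of some list members are not reported here. Doublets were not called, and cells were neither filtered nor clustered.

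The groups and all 28 gene lists were chosen with earlier results of these data known. Named genes are the core list, the 12 highest and 12 lowest ratios among genes with 20 CPM, reads in 75% of cells of the higher group and no overlap (without ribosomal protein genes, pseudogenes and unnamed rows), and up to 4 members per list past 2-fold with the largest ratios. Named repeats are up to 8 per direction without overlap, beside 10 fixed names.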

Additional observations from a re-analysis of the deposited data

How the results depend on the processing

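With 1 library, cells are not replicates, and no setting below carries a test. The median of all genes was -0.28, -0.17 under DESeq2 size factors and -0.15 under TMM.

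The 1140 higher genes became 713 with a pseudocount of 5 CPM, 630 with a floor of 20 CPM, 1740 with no floor and 1822 within set 1, and leaving out 1 low cell gave 1084 to 1306. The 3106 lower genes became 1825 with a floor of 20 CPM, 4803 with no floor and, with GC and length bins subtracted (an alternative added after seeing the data), 1766, and 2935 to 3773 with 1 low cell left out. That subtraction moved the share of higher genes among calls from 26.8% to 44.1%. The 227 higher genes without overlap became 366 under TMM, 758 within set 1, 611 within set 3, 100 with the bins subtracted and 224 to 398 with 1 low cell left out. The 525 lower ones became 1401 within set 1, 1665 within set 3, 860 against the 4 shallowest high cells and 588 to 983 with 1 low cell left out, where 398 and 983 are the values without low cell 2. A lack of overlap is easier to meet with fewer cells. Counts without overlap from settings that leave out cells are thus not comparable with 227 and 525. The core median was -0.53 with the bins subtracted and -1.06 to -0.67 with 1 low cell left out. The spread of autosome medians, 1.05, became 0.93 with a pseudocount of 5, 0.37 with no floor, 0.92 within set 1, 0.85 against the shallowest high cells, 0.27 with the bins subtracted, and 0.89 to 1.22 with 1 low cell left out. The difference in median genes per cell, -1278, was -1354 before thinning.

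The 22 higher repeats became 48 when scaled to gene counts (71.6% of calls instead of 46.8%), 94 with a floor of 20 CPM, 67 within set 1, 37 within set 3 and 9 without low cell 1, 50 without low cell 2 and 42 without low cell 4. The 25 lower repeats became 179 with that floor, 49 within set 1 and 78 with rRNA left out of the total (24.3% of calls higher, an added alternative), and 26 to 30 with 1 low cell left out.

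For genes, lists and repeats that were at least 2-fold as reported, 16 of 2410 alternative values changed direction and are given here. For those under 2-fold, 75 of 1073 changed sign. The POU family median, which rests on POU2F1 and on the members each setting measures, was 0.24 within set 1 and -0.84 to 0.61 with 1 low cell left out (above 0 without cells 2, 3 or 4). Within set 1, TFAP2C was at -0.87, TRIB3 at 0.42 and IRF1 at 0.51, and within set 3, NDUFV2 was at -0.51 and IFIT1 at -1.48. NDUFV2 ran from -0.43, without low cell 2, to 1.95 with 1 low cell left out. With the bins subtracted, the trophoblast and amnion median was 0.10, KRT18 0.10, HSPA1A 0.17, MBD3 0.12, MBD1 0.15 and GAPDH 0.14. The cause was not tested. No paired analysis was possible because the result comes from no test and the cells carry no replicate pairing.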

Other observations

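The 25 ffEPSCs were not used to choose the groups. Their POU5F1 had a lowest value of 518, a median of 1076 and a highest of 1388 CPM, so none of them fell below 300 CPM. The ffEPSC lowest in POU5F1, at 518 CPM, had the highest LSU rRNA share of that library, 4.15% of repeat counts, where the median cell had 1.02%. Its score of GC-rich minus GC-poor genes was 0.16, within the range of the library, -0.11 to 0.70. Over the 25 cells, which share a library, Pearson's r of POU5F1 with the GC score was 0.66 and Spearman's rho 0.77, and r was 0.70 without the 2 cells farthest from the median score. With the LSU rRNA share, r was -0.57 and rho -0.26, and r was -0.26 without the 2 farthest cells, so the value of r rests on them. With depth, r was -0.12 and rho -0.21.

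Immune and surface genes of the low cells went in both directions. Of 16 measured interferon-stimulated genes, 3 were at least 2-fold higher and 4 lower, beside 10.6% and 28.8% of all genes. The list's median was 0.38, beside -0.28 for all genes. B2M, the light chain of MHC class I molecules, was at 996, 301, 385 and 403 CPM in the low cells, against a lowest of 96.2, a median of 194 and a highest of 324 CPM in the high cells. Low cell 2 overlapped and the ratio was 1.33. The heavy chain gene HLA-C (-1.54) was lower with overlap, and has a transcript GC content of 60%, against 39.4% for B2M.

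Among epithelial and mesenchymal genes, 9 of 20 were at least 2-fold lower and 0 higher, against 28.8% and 10.6% of all genes. KRT8, a keratin of simple epithelia, was at 122, 210, 146 and 42.2 CPM against a lowest of 386, a median of 670 and a highest of 1144 CPM, without overlap. Its partner KRT18 was at -1.25 with overlap, and at 0.10 with GC and length bins subtracted.

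The counts of the lists below stand beside 28.8% of all measured genes lower and 10.6% higher, and a share near these says nothing about a list. Of 8 measured nuclear RNAs, 2 were at least 2-fold higher and 0 lower. Of 12 DNA methylation genes, 5 were lower by 2-fold or more, and the median of -0.46 turned to 0.27 with GC and length bins subtracted. The de novo methyltransferase DNMT3A was at -1.53 without overlap. Of 23 Polycomb and histone modifier genes, 5 were lower and 2 higher. Of 14 housekeeping genes, 4 were lower and 1 higher, with a median of -0.56. Of 15 unfolded protein response genes, 5 were lower and 1 higher, and of 13 immediate early and heat shock genes, 5 were lower and 2 higher, with IER2 at -3.74 without overlap. The fibroblast or feeder list had 7 measured members, with 4 lower and 0 higher, and the trophoblast and amnion list 5, with 3 lower and 1 higher. Mesendoderm had 4 measured members with 2 lower and 1 higher, and neuroectoderm 5 with 1 in each direction. Of 12 measured long non-coding RNAs, 3 were higher and 1 lower.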
